A study of Mus musculus with 16 samples.

Results

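The genes described here are 54 genes of DNA replication, nucleotide synthesis and the E2F program, taken by symbol from a written list and looked up in the tables of mCherry+ leukemia cells (called tumor) and mCherry- marrow cells (called stroma). All 54 were listed in both, among 15080 genes in tumor and 13344 in stroma. The cells came from the bone marrow of C57BL/6J mice, either wild-type (WT) or Il-6-/- (IL-6 KO), 6 to 8 weeks old, that were injected through the tail vein with 500000 BCR-ABL+, Arf-/- B-cell acute lymphoblastic leukemia (B-ALL) cells carrying mCherry. All mice were untreated and were sampled 8 days later, with 4 libraries for each of WT tumor, IL-6 KO tumor, WT stroma and IL-6 KO stroma. The comparison of genotypes asked how a host without IL-6 differs from a WT host in the leukemia cells it carries and in the cells around them.

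The B-ALL cells were 1 transduced line that carries the same alleles in both hosts, so the labels of the tumor groups differ in the host. The stroma was everything that remained after red cell lysis and removal of dead and mCherry+ cells, not purified stromal cells. Vpreb1, a surrogate light chain of precursor B cells, had normalized counts of 16186 to 26370 in tumor and at most 47.3 in stroma. Not every B lineage marker differed in this way, and Cd24a had 4387 to 7094 in tumor and 2398 to 7416 in stroma. The compartments were normalized separately, so these counts serve only as a check of the sort labels. The erythroid regulator Klf1 had 397 to 1248 in stroma and 3.7 to 26.6 in tumor, and Cd3e of T cells was in neither table. Il6 itself was not analysed here, so the host genotype rests on the labels.

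DNA replication begins when the origin recognition complex, Cdc6 and Cdt1 load the Mcm2 to Mcm7 helicase on chromatin before S phase. Cdc45 and the GINS complex then switch the helicase on, and polymerases alpha, delta and epsilon copy the strands with the Pcna clamp, its Rfc loader, the RPA single-strand binding proteins, Fen1 and Lig1. Most of these genes are E2F targets: E2f1 and E2f2 activate them as cyclin E and its kinase release the Rb brake, and E2f8 represses them later in the cycle. In the marrow, leukemic blasts, erythroid precursors and neutrophil precursors are all dividing cells that use the same set.

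The E2F site that gives the program its name could be read in the promoters of some of the genes. RefSeq promoters (GRCm38.p6) were available for 45 of the 54, and the absent ones were Mcm4, Gins1, Gins2, Gins4, Prim2, Pole, Rfc2, Ccne2 and Tipin. In the 250 bases before a start site, 11 of the 45 held at least 1 of the words TTTGGCGC, TTTCCCGC, TTTCGCGC or TTTGCCGC on either strand (24.4%), as did 2.16% of 27025 genes. A CCAAT box (CCAAT) was in 29 of the 45 (64.4%, against 37.5% of all genes), and an Sp1 box (GGGCGG) in 31 (68.9%, against 35.4%). The windows of 6 genes are printed. In the tumor test described further on, Mcm5 and Mcm7 were higher in IL-6 KO hosts, and Mcm6, Cdc6, Orc1 and Uhrf1 did not pass. None of the genes that were lower there held such a word. Capitals mark the E2F words, which in Mcm5 and Mcm6 overlap the reverse complement of another of the words, and each sequence runs 5′ to 3′ on the strand of its gene and ends before the start site.
Mcm5 (chr8:75109336-75109387, plus strand): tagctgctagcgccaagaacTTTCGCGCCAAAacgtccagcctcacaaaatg
Mcm6 (chr1:128359725-128359835, minus strand): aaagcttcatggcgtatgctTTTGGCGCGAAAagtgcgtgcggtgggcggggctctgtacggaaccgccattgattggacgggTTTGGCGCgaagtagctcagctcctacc
Mcm7 (chr5:138172021-138172068, minus strand): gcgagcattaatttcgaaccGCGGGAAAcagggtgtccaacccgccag
Cdc6 (chr11:98907993-98908040, plus strand): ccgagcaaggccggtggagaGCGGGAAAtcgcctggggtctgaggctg
Orc1 (chr4:108579407-108579453, plus strand): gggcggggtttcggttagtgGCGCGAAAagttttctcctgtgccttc
Uhrf1 (chr17:56304108-56304155, plus strand): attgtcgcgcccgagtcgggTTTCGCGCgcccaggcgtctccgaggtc

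Genes with and without such a word were both found among those that passed the test in tumor. Of the 11 genes with an E2F word, 2 passed the test in tumor, Mcm5 and Mcm7, both higher in IL-6 KO hosts. Of the 34 without one, 11 were higher and 4 lower. These are 18.2% and 44.1% of the 2 sets, where 19.8% of all genes tested passed. The median log2 fold changes of the pair of sets were 0.03 and 0.13 in tumor and -0.23 and -0.24 in stroma. These are descriptions of the letters in this window and were not tested.

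The values are normalized counts, which the authors computed from salmon estimates with DESeq2 size factors in each compartment on its own. Apart from the marker check above, counts are therefore set side by side within a compartment only. The study states 1 approximate read depth for the whole series, while that of single libraries is unknown. All 54 genes passed the filter of a mean normalized count over 10 in both compartments, with means between 560 and 24841 in tumor and between 28.8 and 3026 in stroma. In stroma, 4 abundant non-coding or ribosomal RNA genes (Rn7s1, CT010467.1, Gm26917 and Gm42418, named after their values were seen) took 53.1 to 75.0% of the summed normalized counts in WT and 80.9 to 89.8% in IL-6 KO libraries. In tumor they took 19.9 to 29.0% in WT and 30.95 to 39.7% in IL-6 KO libraries, which did not overlap. The sums without them were also apart, with 30853783 to 31623772 in WT and 32639731 to 33515953 in IL-6 KO tumor. Whether this has a part in the tumor fold changes was not tested. IL-6 KO tumor library 2 held the highest value of 14 and the lowest of 9 of the 54 genes among the 8 tumor libraries, and several values are also given without it.

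To set genes and compartments side by side, each gene was ranked by normalized count per kb of transcript within each library, over 11809 genes. Replication genes ranked high in both compartments. The median percentile over the 54 was 83.3 in tumor and 77.8 in stroma, 19 genes in tumor and 14 in stroma had a median at or above the 90th percentile, and 3 and 6 were below the 50th. Pcna, the sliding clamp, led in tumor with percentiles of 98.0 to 98.6 over the 8 libraries, and Rrm2, the small subunit of ribonucleotide reductase, led in stroma with 97.2 to 98.3. Pcna and Uhrf1 in tumor, and Rrm2 and E2f2 in stroma, were the neighbours at the top of the order. Brca2, a gene of recombination repair, was lowest in tumor at 37.1 to 44.4, and Pole2, the second subunit of polymerase epsilon, was lowest in stroma at 13.7 to 47.8.

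The ranking differed between the compartments for some genes. For 14 genes every tumor library ranked above every stroma library by percentile, among them Rfc3 of the clamp loader (85.4 to 88.7 in tumor, 19.7 to 68.8 in stroma) and Pold2, the small subunit of polymerase delta (91.2 to 93.6 and 28.7 to 79.8). For Cdc6, Rrm2, Tk1 and E2f2 every tumor library ranked below every stroma library. E2f2 ranked at 82.2 to 85.4 in tumor and 96.0 to 98.0 in stroma, and Cdc6 at 60.4 to 63.4 and 71.3 to 85.1. E2f2 is known for its role in the last divisions of erythroid precursors. How many of all 11809 ranked genes separate in this way, or rank higher in tumor, was not computed. The counts are therefore not read as a trait of the replication genes. These are descriptions within libraries, and no test was run between the compartments.

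**Figure D1:**
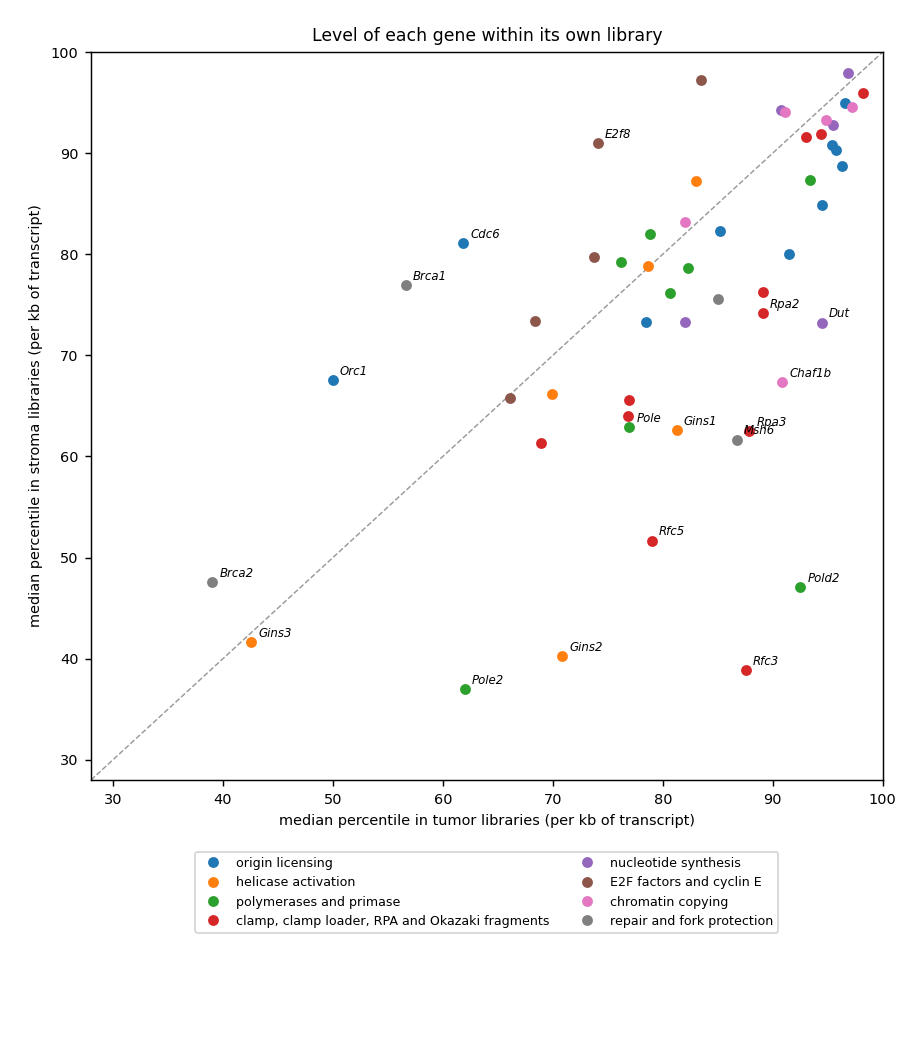
Median percentile of each of the 54 genes among 11809 genes, by normalized count per kb of transcript, over the 8 tumor libraries (x axis) and the 8 stroma libraries (y axis), coloured by role; the dashed line marks equal percentiles. Of the 54 points, 38 lie on the tumor side of the line, Rfc3 and Pold2 far to the right of it, and Cdc6, Brca1, Orc1 and E2f8 lie above it.

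In tumor, more of the replication genes rose than fell in IL-6 KO hosts, and by modest amounts. In limma, 16 of the 54 were higher and 4 lower at an adjusted p under 0.05, which is 37.0% of the genes, where 19.8% of all 14493 genes tested passed. The share higher was 29.6% (10.6% of all genes) and the share lower 7.41% (9.16% of all genes). The median residual spread was 0.12 on the log2 scale for the 54 and 0.21 for all genes tested. Only 2 of the 54 had a spread above that of all genes, so the shares are compared at unequal precision. The rises ran from 15.2% to 68.3% on the scale of log2(normalized count + 1), and the falls from 20.2% to 41.1%. The median log2 fold change over the 54 was 0.08, and over all genes tested -0.01. The libraries of the groups lay apart for 15 genes with all IL-6 KO libraries higher (13.6% of all genes did so) and for 6 with all of them lower (12.0% of all genes). The 15 are 27.8% and the 6 are 11.1% of the 54, and the difference between the genes and all others was not tested.

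Several settings shortened the list. After quantile normalization 9 genes were higher and 6 lower, so the share of rises among the calls moved from 80.0% to 60.0%. After removal of the trend of each library with GC content and length, 10 were higher and 2 lower. The median log2 fold change was 0.05 without IL-6 KO library 3. Without WT tumor library 2, 3 or 4 there were 12 calls each, without IL-6 KO library 1 or 4 there were 11 each, and without IL-6 KO library 2 there were 22. The 7 genes past the threshold in the main test and in all 18 alternatives were Mcm5, Pold1, Lig1, Tk1 and Chaf1a, which rose, and E2f8 and Slbp, which fell.

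**Figure D2:**
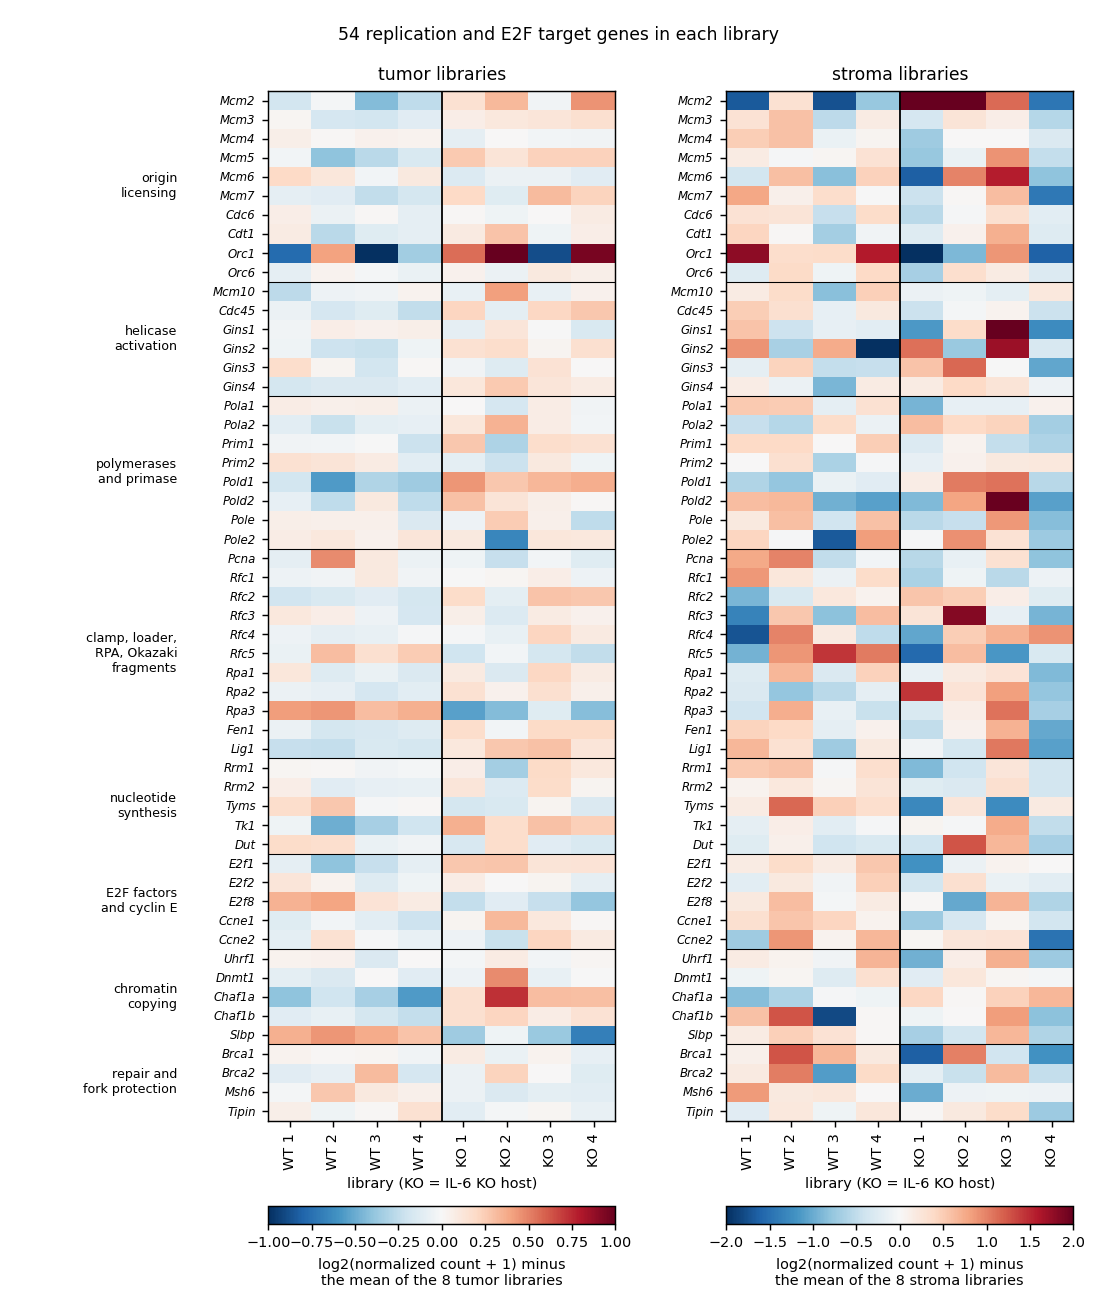
Each row is 1 of the 54 genes, ordered by role, and each column 1 library of tumor (left) or stroma (right); the colour is log2(normalized count + 1) minus the mean of the 8 libraries of that compartment, and values beyond the ends of the bar take the end colour. The tumor scale runs to 1 and the stroma scale to 2 on each side, Orc1 is the most variable row in tumor, and IL-6 KO stroma libraries 1 and 4 hold the lowest value of 19 and 17 rows.

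Of the 10 origin licensing genes, 4 rose in tumor (Mcm2, Mcm3, Mcm5 and Mcm7) and 6 did not pass. The 4 are 40.0% of this role, where 19.8% of all genes tested passed. Mcm5 (chr8:75109569-75128439, GRCm38), a subunit of the helicase ring, had normalized counts of 14013, 10836, 11870 and 12840 in the WT libraries and 17128, 15628, 16787 and 16821 in the IL-6 KO libraries. All 4 IL-6 KO libraries exceeded all WT libraries, and the log2 fold change was 0.43 (standard error, SE, 0.08, limma adjusted p = 0.00778). Mcm2 of the same ring had 13948, 15679, 11746 and 13281 in WT and 17661, 19870, 15451 and 21608 in IL-6 KO tumor. The groups overlapped by 1 library on each side, and the log2 fold change of 0.45 (SE 0.12, limma adjusted p = 0.0262) lost its call without WT library 3 or 4 or IL-6 KO library 1 or 4, and after the GC and length removal (limma adjusted p = 0.0654).

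The 6 subunits of the ring did not move as 1. Mcm4 and Mcm6 had all IL-6 KO libraries below the WT libraries but log2 fold changes of only -0.08 and -0.19, and neither passed (limma adjusted p = 0.32 and 0.0591). Mcm4 turned to 0.06 after the GC and length removal, and Mcm6 passed as lower in 4 alternatives, among them without WT library 3 and without IL-6 KO library 2. Mcm3 rose on the log2 scale by 0.23 (limma adjusted p = 0.03) and Mcm7 by 0.31 (limma adjusted p = 0.042). Both lost the call after quantile normalization, with the replicate block and after the GC and length removal. The call was kept in only 2 (Mcm3) and 1 (Mcm7) of the 8 fits that left out a library.

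The loading factors Cdc6 and Cdt1 did not pass. Cdc6, the ATPase that loads it, had 2277, 2096, 2200 and 2050 in WT and 2200, 2117, 2184 and 2311 in IL-6 KO tumor, which overlapped (log2 fold change 0.03, SE 0.07, limma adjusted p = 0.771). Its partner Cdt1 had 3151, 2463, 2724 and 2794 in WT and 3154, 3627, 2879 and 3109 in IL-6 KO tumor, which overlapped (log2 fold change 0.20, SE 0.10, limma adjusted p = 0.169). Without IL-6 KO library 2 the log2 fold change of Cdt1 was 0.14. Orc1, a subunit of the origin recognition complex, had the largest residual spread of the 54 in tumor (0.77 on the log2 scale, against a median of 0.12) and had 519, 1170, 443 and 696 in WT and 1307, 1882, 477 and 1712 in IL-6 KO tumor. Its log2 fold change of 0.86 was the largest of the 54 and did not pass (SE 0.43, limma adjusted p = 0.187), while without IL-6 KO library 3, the lowest of its group, it was 1.29 and passed (limma adjusted p = 0.0241).

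Of the 6 helicase activators, Cdc45, Gins2 and Gins4 rose and Mcm10, Gins1 and Gins3 did not pass. Gins4, 1 of the 4 GINS subunits, had 1429, 1460, 1460 and 1501 in WT and 1753, 1940, 1763 and 1710 in IL-6 KO tumor. The groups did not overlap, and the log2 fold change was 0.29 (SE 0.07, limma adjusted p = 0.0184). Gins2 had 2521, 2250, 2223 and 2514 in WT and 2891, 2925, 2646 and 2905 in IL-6 KO tumor, again apart (log2 fold change 0.26, SE 0.07, limma adjusted p = 0.0347), but the call was lost after quantile normalization, after the GC and length removal (limma adjusted p = 0.0777) and in 4 of the 8 fits that left out a library. Cdc45, which joins GINS and the ring in the active helicase, had 2008, 1853, 1915 and 1755 in WT and 2426, 1952, 2409 and 2523 in IL-6 KO tumor. IL-6 KO library 2 lay within the WT range, and the call (log2 fold change 0.30, SE 0.09, limma adjusted p = 0.0473) was lost in 7 of the 8 fits that left out a library.

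Of the 8 polymerase and primase genes, only Pold1 passed in tumor (12.5%, below the 19.8% of all genes tested). Pold1 (chr7:44532746-44548849), the catalytic subunit of polymerase delta that copies the lagging strand, had 8758, 6736, 8110 and 7794 in WT and 13534, 11985, 12518 and 12825 in IL-6 KO tumor. The lowest IL-6 KO library exceeded the highest WT library by a wide margin, and the log2 fold change was 0.70 (SE 0.08, limma adjusted p = 0.00135). Its transcript has the highest GC content of the 54 genes (60.7%), and the log2 fold change after removal of the GC and length trend was 0.57 (limma adjusted p = 0.0122).

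The other polymerases gave smaller values. Pola2, a regulatory subunit of polymerase alpha, had 2625, 2418, 2642 and 2673 in WT and 3053, 3596, 2967 and 2776 in IL-6 KO tumor, apart but short of the threshold (log2 fold change 0.25, SE 0.09, limma adjusted p = 0.0663). Without IL-6 KO library 2 the log2 fold change of Pola2 was 0.18. Pole, the catalytic subunit of the leading strand polymerase epsilon, had 6214, 6150, 6153 and 5377 in WT and 5738, 7095, 6150 and 4978 in IL-6 KO tumor. Its groups overlapped throughout, and the log2 fold change was -0.01 (SE 0.10, limma adjusted p = 0.979). Pole2 ranged from 784 to 825 in WT and stood at 482 in IL-6 KO library 2, where the other 3 IL-6 KO libraries had 811 to 819. Its log2 fold change was -0.17, and 0.02 without that library (limma adjusted p = 0.489 and 0.889).

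Of the 11 genes of the clamp, its loader, RPA and the Okazaki fragments, 4 rose (Rfc2, Rpa2, Fen1 and Lig1) and 2 fell (Rfc5 and Rpa3). The share that passed was 54.5%, against 19.8% of all genes tested. Lig1 (chr7:13277283-13311433), which seals Okazaki fragments, had 9301, 9282, 9839 and 9695 in WT and 11764, 13196, 13350 and 11898 in IL-6 KO tumor. The groups were apart, with a log2 fold change of 0.40 with an SE of 0.06 (limma adjusted p = 0.00415). Fen1, which trims the flaps before Lig1 seals the nick, rose on the log2 scale by 0.26 with an SE of 0.07 (limma adjusted p = 0.024). After the GC and length removal it had 0.16 (limma adjusted p = 0.195). Its call was also lost after quantile normalization and was kept in only 2 of the 8 fits that left out a library.

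Rpa3, the smallest subunit of the single-strand binding trimer, had the smallest unadjusted p of this role, with 1377, 1398, 1276 and 1313 in WT and 704, 760, 946 and 766 in IL-6 KO tumor. All IL-6 KO libraries were lower, and the log2 fold change was -0.76 (SE 0.10, limma adjusted p = 0.00195). Its transcript is short (670 bases) and poor in GC (40.4%), and after removal of the GC and length trend the log2 fold change turned to 0.17 (limma adjusted p = 0.4). Rpa2, the middle subunit, rose on the log2 scale by 0.20 (limma adjusted p = 0.0451), a call that was lost in 7 of 8 fits without 1 library. Rpa1, the large subunit, had 0.12 (limma adjusted p = 0.377).

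Pcna had 17826, 26241, 20320 and 18160 in WT and 18339, 16117, 18588 and 17462 in IL-6 KO tumor. The highest value was WT library 2, the groups overlapped, and the log2 fold change was -0.21 (SE 0.12, limma adjusted p = 0.224). Of the 5 subunits of the clamp loader, Rfc2 rose (log2 fold change 0.32, limma adjusted p = 0.0338), Rfc5 fell (-0.33, limma adjusted p = 0.0352), and Rfc1, Rfc3 and Rfc4 had log2 fold changes of 0.01, 0.02 and 0.11. Both loader calls were lost in 7 (Rfc2) and 6 (Rfc5) of the 8 fits that left out a library. After the GC and length removal Rfc2 had 0.35 (limma adjusted p = 0.0514) and Rfc5 -0.29 (limma adjusted p = 0.0653), short of the threshold with little change in size, and Rfc4 had 0.43 and passed (limma adjusted p = 0.0146).

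**Figure D3:**
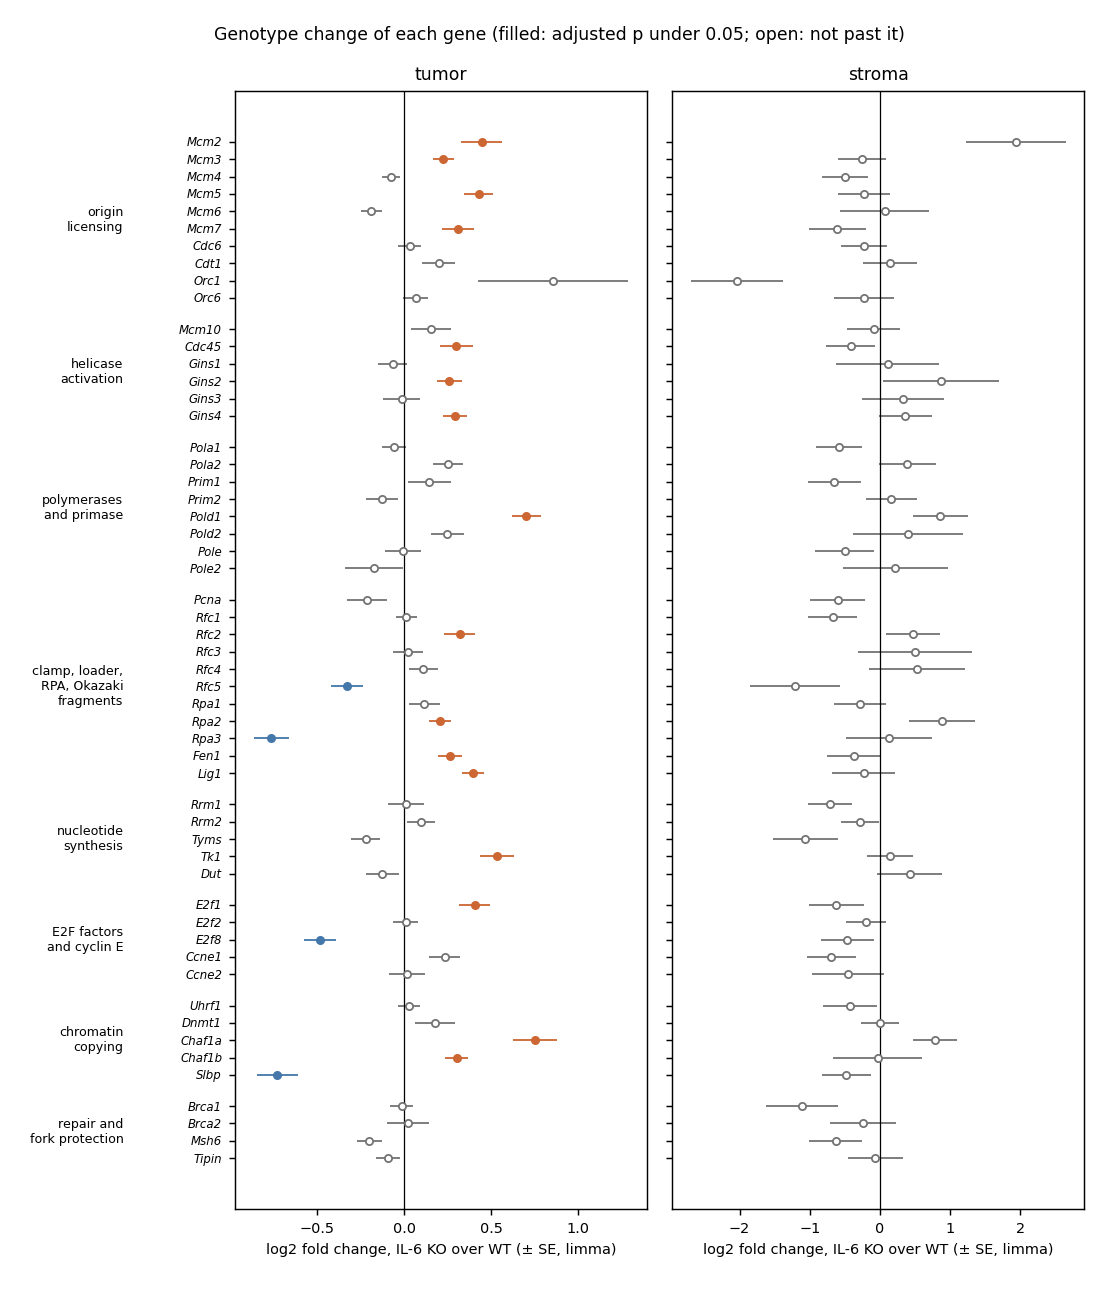
Log2 fold change of IL-6 KO over WT with its SE from limma for each of the 54 genes, by role, in tumor (left) and stroma (right), on axes of different range. Filled points passed an adjusted p of 0.05 (orange higher, blue lower): 20 in tumor and 0 in stroma, where the error bars are several times wider.

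Of the 5 nucleotide synthesis genes, only Tk1, the S phase thymidine kinase of the salvage route, passed in tumor. Tk1 (chr11:117815526-117826092) had 2833, 2079, 2317 and 2533 in WT and 3725, 3293, 3578 and 3444 in IL-6 KO tumor. The groups were apart, and the log2 fold change was 0.53 (SE 0.10, limma adjusted p = 0.00675). Tyms, which makes thymidylate by the other route, had 3979, 4255, 3501 and 3550 in WT and 3130, 3174, 3599 and 3200 in IL-6 KO tumor, where only IL-6 KO library 3 lay within the WT range (log2 fold change -0.22, SE 0.08, limma adjusted p = 0.0908).

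The ribonucleotide reductase subunits were close between the genotypes. Rrm2 had 13958, 12312, 12596 and 12666 in WT and 14451, 12093, 15129 and 13547 in IL-6 KO tumor, which overlapped (log2 fold change 0.10, SE 0.08, limma adjusted p = 0.416). Rrm1 had 13230 in IL-6 KO library 2 and 16383 to 19196 in the other 7 libraries, and its log2 fold change was 0.01, or 0.13 without that library (limma adjusted p = 0.95 and 0.0834).

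Among the regulators, E2f1 rose and E2f8 fell, and E2f2, Ccne1 and Ccne2 did not pass. The share that passed was 40.0%, against 19.8% of all genes tested. E2f1 (chr2:154559407-154569892), an activator of the program, had 1546, 1241, 1404 and 1541 in WT and 1979, 1993, 1796 and 1806 in IL-6 KO tumor. E2f8 (chr7:48866429-48881596), the repressor, had 3618, 3753, 3128 and 3015 in WT and 2419, 2639, 2423 and 2182 in IL-6 KO tumor. Both were apart in opposite directions, with log2 fold changes of 0.41 (SE 0.09, limma adjusted p = 0.0141) and -0.48 (SE 0.09, limma adjusted p = 0.00827). E2f1 kept its call without any 1 library and lost it after the GC and length removal (log2 fold change 0.26, limma adjusted p = 0.064), and its transcript has a GC content of 58.3%.

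The activator E2f2 had 6338, 5977, 5314 and 5639 in WT and 6143, 5833, 5923 and 5484 in IL-6 KO tumor, with no separation (log2 fold change 0.01, SE 0.07, limma adjusted p = 0.946). Ccne1, the cyclin that drives entry into S phase with Cdk2, had 1373, 1461, 1385 and 1289 in WT and 1516, 1870, 1604 and 1500 in IL-6 KO tumor. It was apart but short of the threshold (log2 fold change 0.23, SE 0.09, limma adjusted p = 0.0934). Without IL-6 KO library 2 the log2 fold change of Ccne1 was 0.16. Ccne2, its relative, had 1565, 1856, 1663 and 1588 in WT and 1613, 1437, 1945 and 1782 in IL-6 KO tumor, which overlapped (log2 fold change 0.02, SE 0.10, limma adjusted p = 0.93). After the GC and length removal Ccne2 had a log2 value of 0.42 and passed (limma adjusted p = 0.013).

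Of the 5 genes that copy chromatin behind the fork, Chaf1a and Chaf1b rose, Slbp fell, and Uhrf1 and Dnmt1 did not pass. The share that passed was 60.0%, against 19.8% of all genes tested. Chaf1a (chr17:56040439-56072289), the large subunit of the CAF-1 chaperone that places histones on new DNA, had 4756, 5484, 5006 and 4247 in WT and 7017, 10462, 7793 and 7773 in IL-6 KO tumor. The log2 fold change of 0.75 (SE 0.12, limma adjusted p = 0.00461) was the largest rise of a gene that passed. Without IL-6 KO library 2 it was 0.63 and the call held (limma adjusted p = 0.0027). Chaf1b, the second subunit, rose by 0.30 (SE 0.06, limma adjusted p = 0.0119) and had 0.19 after the GC and length removal (limma adjusted p = 0.0817).

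Slbp (chr5:33634952-33652574), which binds the stem-loop of replication-dependent histone mRNAs, had 5002, 5305, 5036 and 4763 in WT and 3050, 3786, 3014 and 2431 in IL-6 KO tumor. All IL-6 KO libraries were lower (log2 fold change -0.73, SE 0.12, limma adjusted p = 0.00419), and the value stayed between -0.83 and -0.62 over the 18 alternatives. Uhrf1, which reads hemimethylated DNA, had 25439, 25625, 22463 and 24911 in WT and 24494, 26275, 24296 and 25221 in IL-6 KO tumor (log2 fold change 0.03, SE 0.06, limma adjusted p = 0.78). The methyltransferase it recruits, Dnmt1, had 21441, 20682, 22898 and 21156 in WT and 22098, 31851, 21796 and 22887 in IL-6 KO tumor. The high value was IL-6 KO library 2 alone, and the log2 fold change was 0.18 (SE 0.11, limma adjusted p = 0.297), or 0.05 without that library.

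None of the 4 repair and fork protection genes passed in tumor, where 19.8% of all genes tested did. Brca1 had 2575, 2536, 2543 and 2446 in WT and 2658, 2404, 2578 and 2367 in IL-6 KO tumor (log2 fold change -0.01, SE 0.07, limma adjusted p = 0.897). Msh6 of mismatch repair had 6442, 7863, 6983 and 6745 in WT and 6272, 5899, 6109 and 6064 in IL-6 KO tumor, and all IL-6 KO libraries were lower (log2 fold change -0.20, SE 0.07, limma adjusted p = 0.0736). Tipin of the fork protection complex had 2568, 2399, 2496 and 2743 in WT and 2291, 2439, 2501 and 2350 in IL-6 KO tumor, which overlapped (log2 fold change -0.09, limma adjusted p = 0.378).

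**Figure D4:**
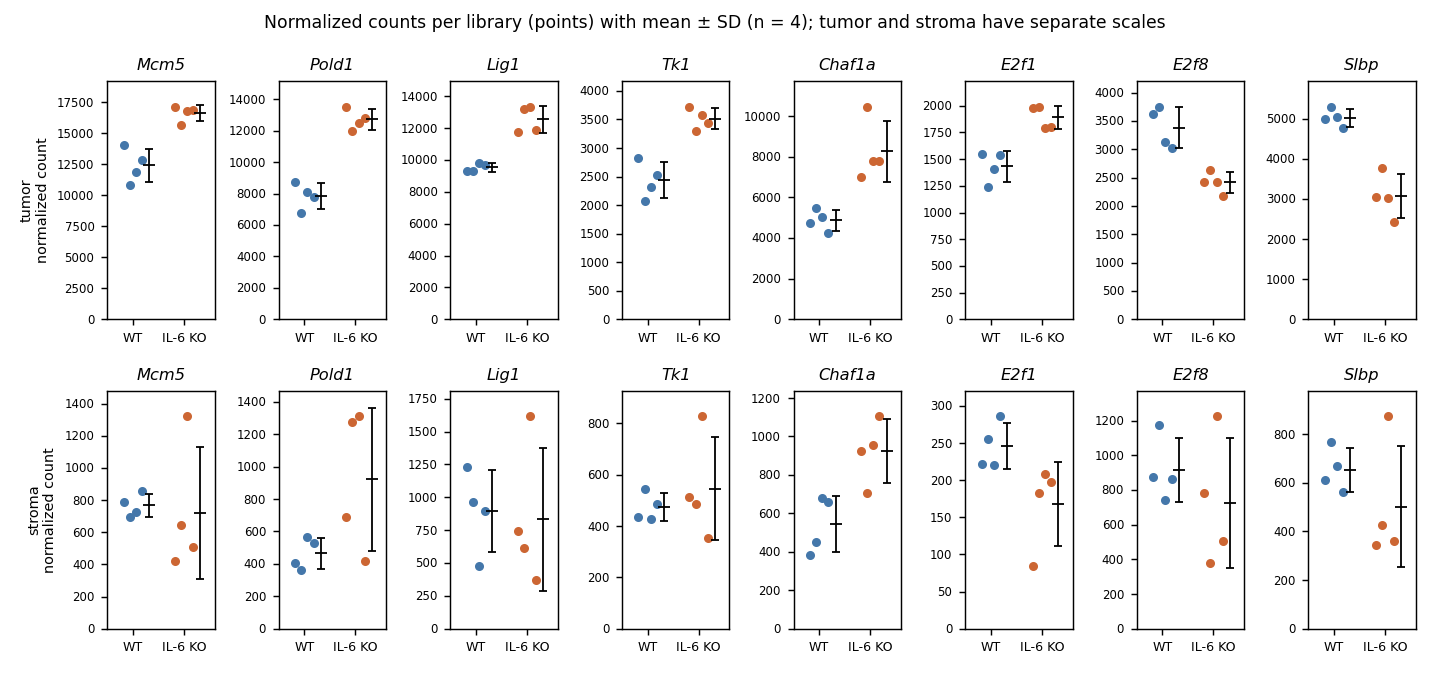
Normalized counts per library (points) with the mean and SD of 4 libraries (bars) for the 7 genes past the threshold in tumor in all settings and for E2f1, in tumor (upper row) and stroma (lower row). In the upper row the WT and IL-6 KO points never overlap, and in the lower row they are apart only for Chaf1a (higher) and E2f1 (lower).

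A pair of measures is given beside the tumor result. The transcripts of the 16 genes called higher had a median GC content of 53.5%, those of the 4 called lower 48.2%, and those of the 34 not called 47.5%. Over all genes the medians were 54.8% for those higher, 45.0% for those lower and 49.3% for those not called, so the genes called higher had the highest median in both sets, while the lowest was that of the genes not called in the first and of those called lower in the second. After removal of the GC and length trend, 9 of the 20 calls were kept: Mcm5, Cdc45, Gins4, Pold1, Lig1, Tk1, Chaf1a, E2f8 and Slbp.

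The second measure was RNA of myeloid cells in the sorted B-ALL cells. The summed level of 8 neutrophil precursor markers was 387 to 530 in WT and 962 to 2141 in IL-6 KO tumor, and 7 of the 8 were higher (Mpo by 1.97 on the log2 scale, limma adjusted p = 0.00161, and Elane by 1.66, limma adjusted p = 0.00778). Of 13 mature neutrophil markers, 9 were higher, and their sum was 4712 to 5324 in WT and 7243 to 17784 in IL-6 KO tumor, while S100a8 did not pass (log2 fold change 0.41, limma adjusted p = 0.174). Of 12 monocyte and macrophage markers 4 were higher, Ly6c2, Ccr2, Cx3cr1 and F13a1 (named after their values were seen), and the sum was 737 to 1066 in WT and 904 to 2103 in IL-6 KO tumor. The 16 B lineage markers summed to 186559 to 192673 in WT and 196099 to 208306 in IL-6 KO tumor, with 2 higher (Vpreb1 by 0.53, limma adjusted p = 0.00368) and 3 lower, and Klf1 stayed at 26.6 or below. Whether the myeloid RNA or the GC content has a part in the replication genes was not tested.

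**Figure D5:**
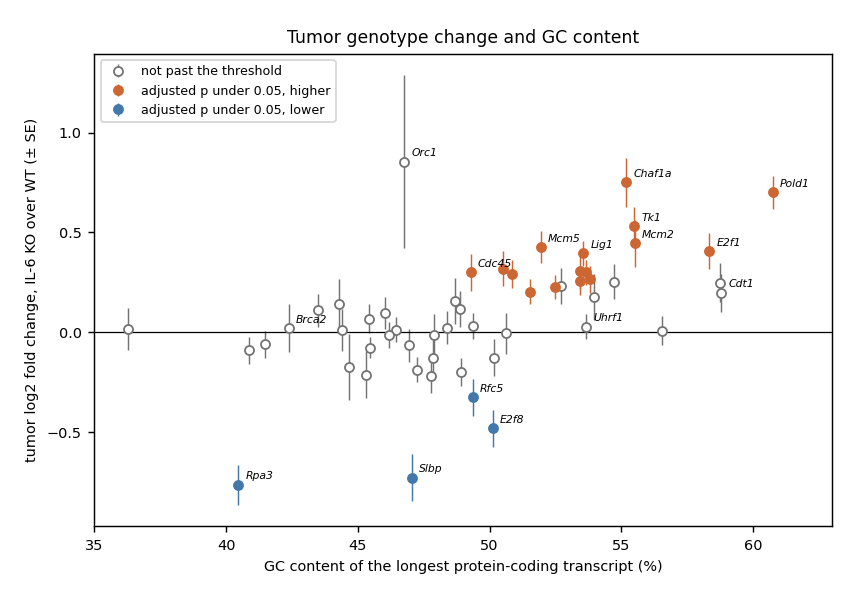
Log2 fold change of IL-6 KO over WT in tumor with its SE (y axis) against the GC content of the longest protein-coding transcript (x axis) for the 54 genes, filled where the adjusted p was under 0.05. The genes called higher lie between 49.3% and 60.7% GC, Rpa3 at 40.4%, and the 3 other genes called lower between 47.1% and 50.1%.

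Shared sequence limits some calls. Of the 20 called genes, 8 share at least 97% identity over at least 150 bases with another listed gene, which are Ubxn6 (Chaf1a), Gm2788 (E2f8), Gm10143 (Fen1), Gse1 (Gins2), Zswim9 (Lig1), Ap4m1 and Gm5487 (Mcm7), Lat2 (Rfc2) and Wsb2 (Rfc5), so the values of these pairs are uncertain where reads could be assigned to either. The labels do not say which mouse each library came from, and the p-values measure the spread between these libraries, which may be partly technical. In such bulk samples, fewer cells of a type and less RNA per cell cannot be told apart.

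In stroma, none of the 54 genes passed the threshold, and more of the values were lower than higher in IL-6 KO hosts. In limma 0 genes had an adjusted p under 0.05 (1 gene of all 12202 tested did, 0.0082%), and 6 genes (11.1%) had an unadjusted p under 0.05, where 9.15% of all genes did. These 6 were Mcm2, Pold1 and Chaf1a with higher and Orc1, Rrm1 and Tyms with lower values. The log2 fold change was negative for 34 of the 54, with a median of -0.23 (all genes tested -0.01). None of the 18 alternatives gave a call in limma, and 2 to 9 of the 54 had an unadjusted p under 0.05 in them. The residual spread had a median of 0.54 on the log2 scale over the 54 genes, against 0.12 in tumor, so that differences of the size seen in tumor were mostly not detectable in these libraries.

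The stroma libraries of 1 group differed widely from each other. The median deviation of the 54 genes from their means was 0.17, 0.36, -0.14 and 0.18 on the log2 scale in WT libraries 1 to 4, and -0.35, 0.09, 0.31 and -0.57 in IL-6 KO libraries 1 to 4. The summed level of 17 erythroid precursor markers was 152920, 197223, 150222 and 215478 in the WT and 68873, 161112, 267339 and 63865 in the IL-6 KO libraries. IL-6 KO libraries 1 and 4 were the lowest and IL-6 KO library 3 was among the highest in both measures. Of the 17 markers 15 had negative log2 fold changes, Klf1 with -0.29 (limma adjusted p = 0.843), and 0 passed in limma (5 had an unadjusted p under 0.05). The median log2 fold change of the 54 genes was -0.10 without IL-6 KO library 1 or 4, -0.12 without WT library 2, -0.15 without WT library 4, -0.40 without WT library 3 and -0.43 without IL-6 KO library 3, and it was -0.13 after the GC and length removal. The 13 mature neutrophil markers summed to 7957, 11758, 13674 and 15359 in the WT and 34006, 32876, 8218 and 28898 in the IL-6 KO libraries, so that IL-6 KO library 3 was low for these and high for the erythroid markers, and 11 of the 13 had positive log2 fold changes with 0 calls in limma (4 with an unadjusted p under 0.05). The part of erythroid and neutrophil cells in these values was not tested.

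Of the licensing genes in stroma, Mcm2 and Orc1 gave the smallest p and went in opposite directions. Mcm2 had 262, 1047, 251 and 501 in WT and 3674, 3541, 1840 and 308 in IL-6 KO stroma. The first 3 IL-6 KO libraries were above all WT libraries and the last was not, so the groups overlapped (log2 fold change 1.93, SE 0.71, limma adjusted p = 0.458). Orc1 had 488, 180, 181 and 423 in WT and 25.4, 74.6, 259 and 45.0 in IL-6 KO stroma, where IL-6 KO library 3 lay within the WT range (log2 fold change -2.04, SE 0.66, limma adjusted p = 0.432).

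The other licensing genes were closer. Cdc6 had 597, 582, 355 and 630 in WT and 335, 481, 607 and 421 in IL-6 KO stroma (log2 fold change -0.23, limma adjusted p = 0.868). Cdt1 had 348, 262, 160 and 244 in WT and 214, 272, 420 and 215 in IL-6 KO stroma (log2 fold change 0.14, limma adjusted p = 0.937). Both overlapped, as did the other subunits of the ring, whose log2 fold changes ran from -0.61 for Mcm7 to 0.07 for Mcm6.

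Helicase activators and polymerases were mixed in stroma. Cdc45 had 310, 273, 196 and 252 in WT and 162, 214, 231 and 163 in IL-6 KO stroma (log2 fold change -0.42, limma adjusted p = 0.735), and Gins2 had 132, 44.3, 118 and 9.55 in WT and 151, 41.2, 232 and 56.0 in IL-6 KO stroma (0.88, limma adjusted p = 0.77). Both sets of groups overlapped. Pold1 had 408, 362, 564 and 530 in WT and 687, 1275, 1312 and 419 in IL-6 KO stroma, where IL-6 KO library 4 was within the WT range (log2 fold change 0.86, SE 0.40, limma adjusted p = 0.542). The catalytic subunit of polymerase alpha, Pola1, had 915, 909, 562 and 790 in WT and 334, 568, 566 and 674 in IL-6 KO stroma (log2 fold change -0.59, limma adjusted p = 0.606). Pole had 440, 590, 296 and 581 in WT and 265, 280, 703 and 212 in IL-6 KO stroma, with IL-6 KO library 3 far above the other 3 (log2 fold change -0.50, limma adjusted p = 0.737).

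Of the clamp and its 5 loader subunits, 3 had lower and 3 higher fitted values in IL-6 KO stroma, with no call. Pcna had 1281, 1503, 536 and 722 in WT and 511, 678, 930 and 433 in IL-6 KO stroma (log2 fold change -0.60, limma adjusted p = 0.658). Rfc1, the large subunit of the loader, had 484, 312, 246 and 344 in WT and 171, 250, 183 and 248 in IL-6 KO stroma (-0.68, limma adjusted p = 0.579). Rfc5 had 42.5, 153, 224 and 171 in WT and 27.3, 127, 36.1 and 66.7 in IL-6 KO stroma (-1.21, limma adjusted p = 0.586). The groups overlapped for all 3, as they did for Rfc2, Rfc3 and Rfc4, whose log2 fold changes were 0.46, 0.50 and 0.53.

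Nucleotide synthesis genes gave 2 of the 6 genes with an unadjusted p under 0.05 (40.0% of this role, against 9.15% of all genes). Tyms had 235, 463, 290 and 262 in WT and 84.9, 248, 86.3 and 236 in IL-6 KO stroma (log2 fold change -1.06, SE 0.46, limma adjusted p = 0.522). Rrm1, the large subunit of ribonucleotide reductase, had 1492, 1543, 1024 and 1307 in WT and 560, 788, 1227 and 800 in IL-6 KO stroma (-0.71, SE 0.31, limma adjusted p = 0.531). For Tyms 2 IL-6 KO libraries and for Rrm1 only IL-6 KO library 3 lay above the lowest WT library. Rrm2 had 1817, 2014, 1792 and 2076 in WT and 1471, 1430, 2163 and 1356 in IL-6 KO stroma, where IL-6 KO library 3 was the highest of all 8 (-0.29, limma adjusted p = 0.774).

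All 5 of the E2F factors and E cyclins had lower fitted values in IL-6 KO stroma, and none passed. E2f1 had 222, 256, 221 and 286 in WT and 84.7, 183, 208 and 198 in IL-6 KO stroma. Ccne1 had 255, 299, 273 and 213 in WT and 123, 160, 208 and 157 in IL-6 KO stroma. For both genes all IL-6 KO libraries lay below the WT libraries (log2 fold changes -0.62 and -0.69, limma adjusted p = 0.646 and 0.57). In all, 4 of the 54 genes had groups apart in stroma, which is 1 higher and 3 lower, where 5.79% of all genes were apart in either direction.

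The rest of this role overlapped. E2f2 had 2566, 3408, 2832 and 4146 in WT and 2296, 3712, 2694 and 2552 in IL-6 KO stroma (log2 fold change -0.20, limma adjusted p = 0.863). Ccne2 had 92.4, 282, 160 and 241 in WT and 156, 181, 185 and 54.1 in IL-6 KO stroma (-0.45, limma adjusted p = 0.815). E2f8 had 877, 1178, 744 and 864 in WT and 781, 378, 1226 and 506 in IL-6 KO stroma (-0.46, limma adjusted p = 0.732).

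Chaf1a and Msh6 were the genes whose groups were apart in the same direction in tumor and in stroma. The share of all genes that did so was not computed. Chaf1a had 386, 453, 682 and 657 in WT and 927, 703, 956 and 1106 in IL-6 KO stroma, all IL-6 KO libraries higher (log2 fold change 0.78, SE 0.31, limma adjusted p = 0.483). Msh6 had 375, 238, 243 and 208 in WT and 105, 194, 197 and 194 in IL-6 KO stroma, all lower (-0.63, SE 0.38, limma adjusted p = 0.623). Slbp had 613, 768, 671 and 561 in WT and 346, 428, 875 and 362 in IL-6 KO stroma, where IL-6 KO library 3 was the highest of the 8 (-0.48, limma adjusted p = 0.7).

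The remaining genes of these roles did not separate. Uhrf1 had 1267, 1187, 1078 and 1820 in WT and 582, 1244, 1851 and 684 in IL-6 KO stroma (log2 fold change -0.42, limma adjusted p = 0.763). Dnmt1 had 1537, 1663, 1358 and 2030 in WT and 1383, 1893, 1677 and 1576 in IL-6 KO stroma (-0.01, limma adjusted p = 0.995). Brca1 had 563, 1248, 831 and 595 in WT and 167, 1047, 401 and 225 in IL-6 KO stroma, with 3 of the 4 IL-6 KO libraries below all WT libraries (-1.11, SE 0.52, limma adjusted p = 0.548).

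The genotype change was compared between tumor and stroma in 1 limma fit of all 16 libraries, in which a fixed scale of either compartment cancels. This fit took the tumor and stroma libraries as independent, though both were sorted from bone marrow and may share mice, which the labels do not say. None of the 54 genes passed (1 of 10887 genes did, 0.00919%), and 4 had an unadjusted p under 0.05 (7.41%, against 8.76% of all genes). These were E2f1, Ccne1, Rfc1 and Brca1, each with a tumor change above the stroma change. The differences were 1.03 for E2f1 (SE 0.38, limma adjusted p = 0.461), 0.92 for Ccne1 (SE 0.35, limma adjusted p = 0.461), 0.69 for Rfc1 and 1.10 for Brca1. Of the 54 genes, 33 had a tumor change above the stroma change, with a median difference of 0.28 (0.03 over all genes), and 24 had the same sign in both compartments.

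Neighbouring genes of the cell cycle were described beside these. Of 32 other replication genes, 7 were higher and 8 lower in IL-6 KO tumor (median log2 fold change -0.02), which is 46.9% of them, where 19.8% of all genes passed. Topbp1, which helps to activate the helicase, rose by 0.54 (SE 0.06, limma adjusted p = 0.00107) and Recql4, a helicase of replication initiation, by 0.50 (SE 0.07, limma adjusted p = 0.00329), while Pole4, a small histone-fold subunit of polymerase epsilon, fell by 0.56 on the log2 scale (SE 0.08, limma adjusted p = 0.00341). Of 19 other nucleotide synthesis genes, 6 were higher and 1 lower (36.8%). Shmt2, the mitochondrial serine hydroxymethyltransferase, rose by 0.57 (SE 0.08, limma adjusted p = 0.00194), Cad, which begins pyrimidine synthesis, by 0.58 (SE 0.11, limma adjusted p = 0.00729), and Dctpp1, a dCTP pyrophosphatase, by 0.40 (SE 0.07, limma adjusted p = 0.00649).

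Of 30 E2F, Rb and G1/S regulators tested in tumor, 3 were higher and 6 lower (30.0%). The kinases that phosphorylate Rb moved apart: Cdk6 had 17347 to 21222 in WT and 29790 to 37484 in IL-6 KO tumor (log2 fold change 0.71, SE 0.09, limma adjusted p = 0.00179), and Cdk4 had 14628 to 15832 and 12002 to 13212 (-0.27, SE 0.06, limma adjusted p = 0.0113). Ccna2, the S phase cyclin, had 11095 to 12124 in WT and 7657 to 8457 in IL-6 KO tumor (-0.51, SE 0.06, limma adjusted p = 0.00107). None of these 3 pairs of groups overlapped. Of 40 G2/M and mitosis genes, 9 were higher and 1 lower in IL-6 KO tumor (25.0%, near the 19.8% of all genes), with Ncapd2 of condensin (0.54, limma adjusted p = 0.000719), the separase Espl1 (0.60, limma adjusted p = 0.0051) and the ubiquitin-conjugating enzyme Ube2c (0.31, limma adjusted p = 0.00949) among those higher.

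In stroma 0 genes of these 4 lists passed in limma, and the mitotic list had the lowest values. Of its 40 genes, 34 had negative log2 fold changes (median -0.63) and 14 had an unadjusted p under 0.05, all lower, beside the 3 higher and 3 lower of the 54 replication genes. Hmmr, which organizes the spindle, had 414 to 904 in WT and 139 to 370 in IL-6 KO stroma (log2 fold change -1.50, limma adjusted p = 0.324), and Smc4 of condensin and Nusap1 of the spindle had -1.03 (limma adjusted p = 0.383) and -1.36 (limma adjusted p = 0.413), each with all IL-6 KO libraries lower. Of the other replication genes 5 (15.6%) had an unadjusted p under 0.05, all lower, among them Pole3 (-1.74), Atad5 (-0.88) and Mcm8 (-2.15). Of the other nucleotide synthesis genes 1 did (5.26%), Samhd1, with a log2 fold change of 0.93, and Impdh2 and Shmt1 had 0.96 and 1.34. Of the 29 regulators tested 7 did (24.1%), with Tfdp2, a dimerization partner of E2F, at -1.08, Rb1 at -1.67 and Cdk6 at 1.20.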

How the data were processed

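RNA from sorted mCherry+ and mCherry- marrow cells was sequenced from rRNA-depleted directional libraries. The authors aligned reads to mm10, quantified transcripts with salmon 1.3.0 with GC and sequence bias correction, and normalized the estimates per gene with DESeq2 1.28.1 in each compartment. The deposited normalized counts are a signal on DESeq2's scale in which whole reads cannot be counted, so the depth of each library is unknown (the study states 1 approximate value for all) and count tests were not run. The tables of the authors' own DESeq2 comparisons (fold changes and p-values) were not used.

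Genotype and compartment in the labels gave the groups, and all 16 libraries entered. The normalized counts were tested as log2(normalized count + 1) with limma 3.58.1 (R 4.3.3), moderated variances that follow the mean, genes with a mean over 10, two-sided, Benjamini-Hochberg over all genes tested, threshold 0.05, with genotype as the only term and tumor and stroma in separate fits. Scripts were tested on simulated data first. Alternatives were pseudocounts of 0.5 and 5, no filter or a mean over 50, quantile normalization, median centring, array weights, a replicate block, removal of each library's loess trend (span 0.3) with GC content and length, and each library left out. The test of the difference between compartments gave each compartment its own variance weight, and also had an alternative without it.

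Positions, transcript lengths and GC content came from GENCODE vM21, in which 15069 of 15080 tumor and 13338 of 13344 stroma identifiers were found, promoters from RefSeq, and shared sequence from BLAST 2.17.0 of transcripts. Python 3.11.15 with pandas 2.3.3, SciPy 1.17.1 and matplotlib 3.10.9 was used for tables and figures. Values per library are given for 16 set members and, in each compartment and role, for the 2 members with the smallest unadjusted p, and for the other genes up to 3 per list with the smallest p. Further members were named for a call, a library that stood apart or a place in an order. The members and lists were chosen with earlier results of these data known. Results for some marker genes are not reported here.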

Additional observations from a re-analysis of the deposited data

Results flagged for a closer look

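E2f1 and Ccne1 had all IL-6 KO libraries above the WT libraries in tumor and all below them in stroma, and the tumor change exceeded the stroma change by a log2 value of 1.03 for E2f1 and 0.92 for Ccne1. In the limma test of that difference neither passed (adjusted p = 0.461 for both), and neither passed in any alternative. Of all genes, 13.6% had all IL-6 KO libraries higher in tumor and 3.25% had all of them lower in stroma. How many did both was not computed, so the pair is not read as a trait of the replication genes.

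In 106 groups of 4 libraries, 8 libraries lay far from the other 3 of their group by Dixon's ratio, where chance gives about 1 in 20. In tumor the libraries found were Dnmt1 in IL-6 KO library 2 (31851, where the others had 21796 to 22887), Pole in WT library 4 (5377, others 6150 to 6214), Gins2 in IL-6 KO library 3 (2646, others 2891 to 2925) and Tyms in IL-6 KO library 3 (3599, others 3130 to 3200). In stroma, IL-6 KO library 3 was high for Pole (703, others 213 to 281), Rrm2 (2163, others 1356 to 1471) and Slbp (875, others 346 to 428), and IL-6 KO library 1 was low for Msh6 (105, others 194 to 197).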

How the results depend on the processing

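Pseudocounts, filters, median centring and array weights left 19 to 22 called members in tumor. Quantile normalization gave 9 members higher and a median log2 fold change of 0.038, removal of the GC and length trend gave 12 calls (10 higher, 2 lower) and a median of 0.166 (0.067 over all genes), and the same removal with the replicate block gave 10 calls (8 higher, 2 lower) and a median of 0.166. The replicate block alone gave 15 calls. Same-numbered WT and IL-6 KO libraries did not deviate together (correlations from -0.019 to 0 in tumor and from -0.029 to 0.126 in stroma), so the numbers do not pair them, and none matched best with its own number. Same-numbered tumor and stroma libraries had correlations from -0.063 to 0.108 in WT and from -0.025 to 0.07 in IL-6 KO hosts. Of these, WT library 4 and IL-6 KO libraries 2 and 3 matched best with their own number. Without 1 library, tumor had 11 to 22 calls, 8 to 17 members higher and a median from 0.0486 to 0.096. In stroma and in the comparison of compartments, 0 members passed limma's threshold in every alternative, and 2 to 9 and 1 to 11 had an unadjusted p under 0.05.

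Of the tumor values of all 54 members under the alternatives, 806 kept direction and side of the threshold, 90 lost and 15 gained a call, and 61 changed sign (16 members), of which only those of Rpa3 had passed. Orc1 gained a call with the replicate block. With the GC and length trend removed, with or without the replicate block, the log2 fold change was 0.166 for Rpa3, 0.146 for Brca1, 0.228 for Tipin, 0.0683 for Pole, -0.0718 for E2f2 and -0.0466 for Uhrf1 in tumor, and -0.0715 for Cdt1 and 0.0466 for Ccne2 in stroma. After quantile normalization E2f2 had -0.0537, Uhrf1 -0.0528 and Ccne2 -0.0024 in tumor. Median centring gave Pole 0.0, and array weights gave Dnmt1 0.0259 in stroma. Without 1 library, tumor values ran from -0.0905 to 0.0799 for Pole, -0.0445 to 0.0114 for Brca1, -0.0334 to 0.0513 for E2f2, -0.0528 to 0.0927 for Ccne2 and -0.0151 to 0.0483 for Uhrf1, and stroma values from -0.0725 to 0.3097 for Cdt1 and -0.0937 to 0.0993 for Dnmt1. The causes were not tested.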
